A study of Mus musculus with 18 samples.

Results

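The 9 genes described here encode the class I histone deacetylases Hdac1, Hdac2, Hdac3 and Hdac8 and 5 subunits of the corepressor complexes that carry them: Sin3a, Rcor1, Mta2, Ncor1 and Chd4. They were taken by symbol from a count table of 21638 mouse genes and all 9 were found. Messenger RNA had been sequenced from endothelial cells of the adult mouse cortex, sorted as positive for CD31 and negative for CD41 and CD45, in 18 libraries made with an ultra-low-input kit. The series asked how epigenetic regulators act on brain endothelium after stroke. There were 6 groups of 3 libraries. Sham and MCAO (middle cerebral artery occlusion, a surgical stroke model) mice, labelled wild type, each gave an ipsilateral group from the operated side and a contralateral group from the other side. Occluded mice of the MCAO-Hdac2 ECKO label and of the MCAO-Ezh2 ECKO label, with floxed Hdac2 or Ezh2 and a tamoxifen-inducible Cre driven by Cdh5, a gene of endothelial cells, gave ipsilateral libraries only and are called Hdac2 ECKO and Ezh2 ECKO below. Mice of all 6 groups were labelled as given tamoxifen at 75 mg per kg, and cells were isolated on day 7. The labels did not say whether libraries came from separate mice, so p-values measure only the spread between these libraries.

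Class I deacetylases remove acetyl groups from histone lysines, which is in general linked to lower transcription. Hdac1 and Hdac2 work inside the SIN3, NuRD and CoREST complexes, Hdac3 works with NCoR and SMRT, and Hdac8 acts outside these complexes, with cohesin as a known substrate. DNA-binding repressors bring the complexes to their target genes, and in endothelium these enzymes are known to take part in vessel development and barrier formation.

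Total counts ran from 25791401 to 57576255 per library, and 17094 genes had at least 10 counts in at least 3 libraries and were tested, all 9 members among them. All 10 endothelial markers were detected in every group, with summed levels from 7985 to 26988 CPM (the usual depth-scaled level, a count relative to the scaled library total). In MCAO ipsilateral the sums were 16921 to 26988 CPM, above 11538 to 16586 in Hdac2 ECKO and 7985 to 12331 in Ezh2 ECKO. They were 10816 to 14024 in sham ipsilateral, 12956 to 20574 in sham contralateral and 12130 to 25960 in MCAO contralateral. Under each ECKO label 5 markers were higher and 5 lower than in MCAO ipsilateral. Summed levels of 5 red cell markers ran from 38267 to 65445 CPM in MCAO ipsilateral, from 49294 to 297849 in Hdac2 ECKO and from 70.1 to 671 in Ezh2 ECKO. MCAO contralateral replicate 1 and Ezh2 ECKO replicate 2 stood apart, with median correlations with the other libraries of 0.802 and 0.835. These 2 libraries also held the most counts on olfactory and vomeronasal receptor genes, a measure of diffuse background, at 1889 and 2083 CPM.

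Hdac2 was the most abundant member per kb of merged exons and Hdac8 the least. Levels between genes were compared as CPM per kb of merged exons over all 18 libraries. Merged exons span 4054 bases for Hdac3, whose longest coding transcript has 2032, but 5684 and 5684 for Rcor1. The order can therefore depend on the length used. Hdac2 averaged 21.8 ± 6.32 (SD, n = 18), Hdac1 12.4 ± 5.02 and Ncor1 11.0 ± 2.64. Hdac2 was the highest member in 15 of 18 libraries and lay above Hdac1 in 16. Rcor1 followed at 7.65 ± 2.25, and Hdac8 was last at 0.889 ± 0.503, the lowest member in 17 of 18 libraries. Between them, Sin3a (5.10), Hdac3 (5.05), Chd4 (4.70) and Mta2 (4.65) were too close to order. Sin3a lay above Hdac3 in 9 of 18 libraries, Hdac3 above Chd4 in 9 and Chd4 above Mta2 in 11. Hdac1 lay above Ncor1 in 12 of 18 libraries, so these neighbours overlapped as well. The place of Hdac1 is uncertain, because 46.7% of the 100-base stretches of its longest coding transcript also occur in the pseudogene Gm10093. How reads shared with Gm10093 were counted is not known, so the order of Hdac2 and Hdac1 is not settled.

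**Figure D1:**
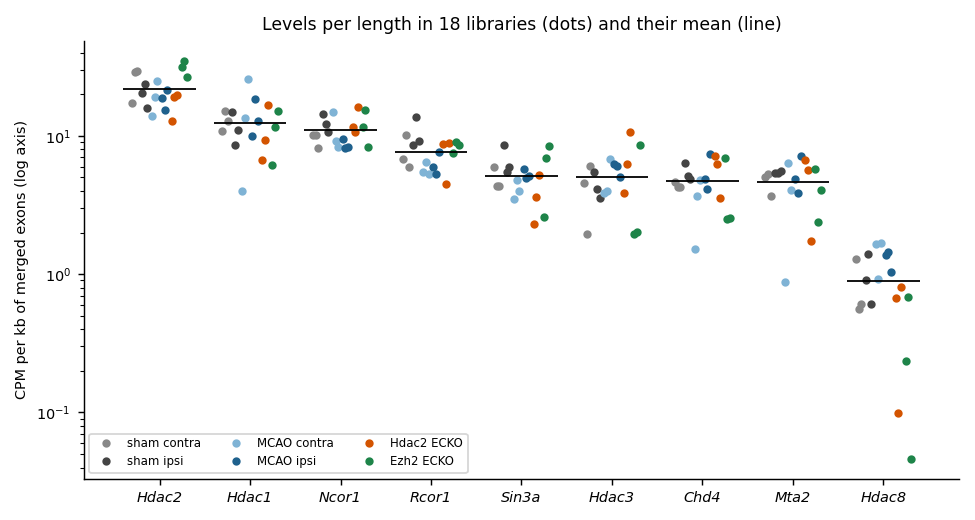
Level of each member in CPM per kb of merged exons (log axis), with 1 dot per library coloured by group and a line at the mean of 18 libraries. Hdac2 leads at 21.8, the run from Sin3a to Mta2 overlaps, and Hdac8 lies lowest at 0.889.

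The spread between libraries differed among the members. The biological coefficient of variation, the spread between libraries that counting does not account for, was 0.292 for Ncor1, 0.303 for Hdac2 and 0.334 for Rcor1, below the median of 0.414 over the 7814 genes that averaged 10 CPM or more. It was 0.499 for Hdac3 and 0.514 for Mta2, above that median. Hdac8, which averaged under 10 CPM, had 0.718, beside a median of 0.687 over all tested genes. From the lowest to the highest library, Ncor1 differed 1.99-fold, Hdac2 2.72-fold, Mta2 8.04-fold and Hdac8 36.1-fold.

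Hdac2 lies on chromosome 10 (36974544 to 37001889, plus strand, build GRCm38 for all coordinates). In the libraries labelled Hdac2 ECKO it was read at 57.6, 85.0 and 87.9 CPM, against 84.4, 68.2 and 96.1 CPM in MCAO ipsilateral. The groups overlapped, so the label was not matched by a lower gene total. The log2 difference was −0.11 ± 0.32 (SE; 95% interval −0.78 to 0.56; adjusted p = 0.925, edgeR), which allows levels from 0.584 to 1.47 times the control. Counts per gene cover all exons, and the exons between the loxP sites were not analysed here. Ezh2, the other floxed gene, was also not lower under its own label, at 8.41 to 19.7 CPM in Ezh2 ECKO. MCAO ipsilateral gave 4.45 to 7.85 CPM (log2 difference 1.05 ± 0.86, adjusted p = 0.485, edgeR). In bulk samples, fewer cells of a type and less RNA per cell cannot be told apart.

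The libraries labelled Ezh2 ECKO had the highest group mean of Hdac2, at 140, 156 and 118 CPM. All 3 lay above the 3 MCAO ipsilateral libraries and above the 3 Hdac2 ECKO libraries. Against MCAO ipsilateral the log2 difference was 0.74 ± 0.32 (95% interval 0.07 to 1.41). The adjusted p over all genes was 0.216 in edgeR's quasi-likelihood test, so the gene was not called. DESeq2 gave 0.94 with an adjusted p of 0.0490, in a comparison where it called 1642 of the 17094 tested genes. Over the other settings tried the adjusted p reached 0.603. Sham contralateral overlapped this range, with 2 libraries above Ezh2 ECKO replicate 3. It gave 76.8, 128 and 132 CPM and MCAO contralateral 61.9, 85.1 and 111 CPM, while sham ipsilateral gave 92.0, 107 and 70.9 CPM. Within Ezh2 ECKO, Hdac2 was highest in replicate 2, the library with the most background. Without that library the difference from MCAO ipsilateral was 0.62 (adjusted p = 0.388). With background as a covariate it was 0.78 (adjusted p = 0.292, edgeR). With the trend of levels with GC content in a library as a covariate it was 0.74 (adjusted p = 0.603, edgeR). Over the 18 libraries, Hdac2 had an r of 0.15 with background, a description. The red cell markers, at most 671 CPM in Ezh2 ECKO and at least 38267 CPM in MCAO ipsilateral, separated the same 2 groups. So did the summed endothelial markers, at most 12331 CPM in Ezh2 ECKO and at least 16921 CPM in MCAO ipsilateral. The part of either marker set in the Hdac2, Hdac8 and Nr1d1 differences was not tested.

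Hdac1, the close paralogue of Hdac2 and its partner in the same complexes, lies on chromosome 4 (129516104 to 129542713, minus strand). Its counts are uncertain, because 46.7% of the 100-base stretches of its longest coding transcript also occur in the pseudogene Gm10093. The count table does not list that pseudogene, so comparisons of Hdac2 with Hdac1 are uncertain as well. Hdac1 ranged from 13.8 CPM in MCAO contralateral replicate 1 to 88.2 CPM in MCAO contralateral replicate 3, with a median of 41.9 CPM. Both extremes fell in a single group. Hdac2 had more counts than Hdac1 in 18 of 18 libraries. The log2 ratio of Hdac2 to Hdac1 ran from 0.10 to 2.72, with a median of 1.24. Its group mean was 1.96 ± 0.77 in Ezh2 ECKO and 0.84 ± 0.65 in MCAO ipsilateral (SD, n = 3 each), a difference of 1.12 ± 0.58 (SE). That comparison had a two-sided exact permutation p of 0.2, where 0.1 is the smallest 3 against 3 libraries can give. In the 7 comparisons of this ratio the exact p lay between 0.2 and 0.8, and every value was 0.8 after adjustment. With a floor of 0.1, no comparison of the ratio could have passed the test. The groups overlapped in all 7 comparisons.

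**Figure D2:**
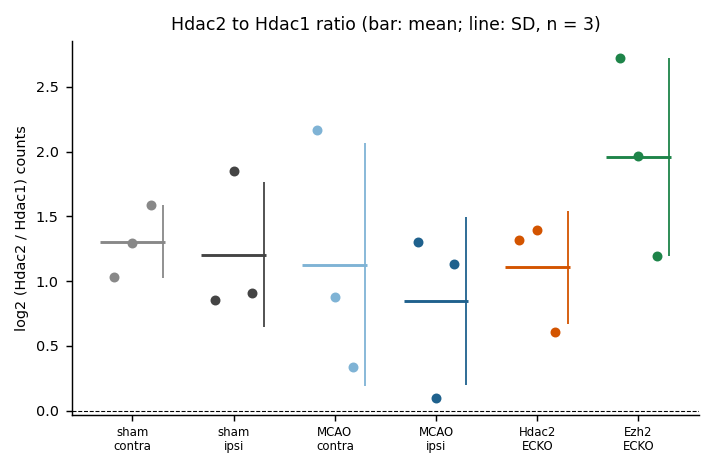
Log2 ratio of Hdac2 to Hdac1 counts in each library (dots) by group, with the group mean (bar) and SD (line, n = 3). All 18 values lie above 0, and the groups overlap, with means from 0.84 in MCAO ipsilateral to 1.96 in Ezh2 ECKO.

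Hdac3, the deacetylase of the NCoR and SMRT complexes, lies on chromosome 18 (37935844 to 37955016, minus strand). It ranged from 7.87 to 43.1 CPM over the 18 libraries, with no consistent order of groups. Ezh2 ECKO alone spanned 7.87, 8.22 and 34.6 CPM. Hdac8, on chromosome X (102284639 to 102505359, minus strand), was read at 6.66, 6.97 and 5.00 CPM in MCAO ipsilateral. In Hdac2 ECKO it stood at 3.24, 0.481 and 3.94 CPM, and in Ezh2 ECKO at 1.13, 3.33 and 0.224 CPM. Both sets lay below all 3 MCAO ipsilateral libraries, and below MCAO contralateral at 8.04, 4.44 and 8.08 CPM. Both overlapped the sham libraries, at 4.37, 6.72 and 2.94 CPM on the ipsilateral and 6.24, 2.69 and 2.93 CPM on the contralateral side. The lowest values rest on few reads, 16 counts in Hdac2 ECKO replicate 2 and 8 in Ezh2 ECKO replicate 3. The log2 difference from MCAO ipsilateral was −1.28 ± 0.87 for Hdac2 ECKO (adjusted p = 0.656) and −1.99 ± 0.89 for Ezh2 ECKO (adjusted p = 0.227), and neither was called. Without Ezh2 ECKO replicate 2 the latter was −3.22, still short of the threshold (adjusted p = 0.124).

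Of the 4 class I genes, Hdac2 took the largest mean share of their summed counts in each of the 6 groups. The share ran from 51.9% ± 8.87 in MCAO ipsilateral to 71.7% ± 12.6 in Ezh2 ECKO (SD, n = 3 each). Hdac1 took 19.0% to 29.4%, Hdac3 8.48% to 18.6% and Hdac8 0.791% to 4.81% as group means. These shares are of counts, not of counts per length, and they rest on the uncertain Hdac1 counts.

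Sin3a, the scaffold of the SIN3 complex, lies on chromosome 9 (57072040 to 57128366, plus strand). It ran from 12.5 to 46.4 CPM and had its lowest library in Hdac2 ECKO, at 12.5, 19.4 and 28.2 CPM. MCAO ipsilateral gave 31.0, 26.5 and 27.7 CPM, and the groups overlapped (log2 difference −0.51 ± 0.43, adjusted p = 0.729). A small part of its exons, 3.81%, overlaps the antisense gene Man2c1os. Without a stated strand setting, reads of that stretch cannot be assigned to either gene.

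Rcor1 (CoREST), which joins the demethylase Kdm1a to Hdac1 and Hdac2, lies on chromosome 12 (111039351 to 111115901, plus strand). It was read at 48.8, 78.0 and 52.6 CPM in sham ipsilateral and at 33.8, 29.9 and 43.7 CPM in MCAO ipsilateral. The groups did not overlap. The log2 difference was −0.74 ± 0.36 (95% interval −1.48 to −0.000503), with an adjusted p of 0.702 in edgeR. On the contralateral side, sham gave 38.4, 57.6 and 33.7 CPM and MCAO 30.9, 37.1 and 30.0 CPM, which overlapped (−0.40 ± 0.35, adjusted p = 0.920).

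Ncor1, the nuclear receptor corepressor that binds and activates Hdac3, lies on chromosome 11 (62316426 to 62458541, minus strand). MCAO ipsilateral libraries were read at 121, 104 and 106 CPM, below the sham ipsilateral values of 183, 155 and 137 CPM and below the Hdac2 ECKO values of 148, 136 and 207 CPM. Neither difference passed the test. The log2 difference was −0.52 ± 0.31 for MCAO against sham ipsilateral (adjusted p = 0.745) and 0.57 ± 0.31 for Hdac2 ECKO against MCAO ipsilateral (adjusted p = 0.562). Both comparisons share the 3 MCAO ipsilateral libraries. Over the 18 libraries, Ncor1 was higher where background was higher (r 0.69, rho 0.68, a description). With background as a covariate the differences were −0.34 and 0.44.

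**Figure D3:**
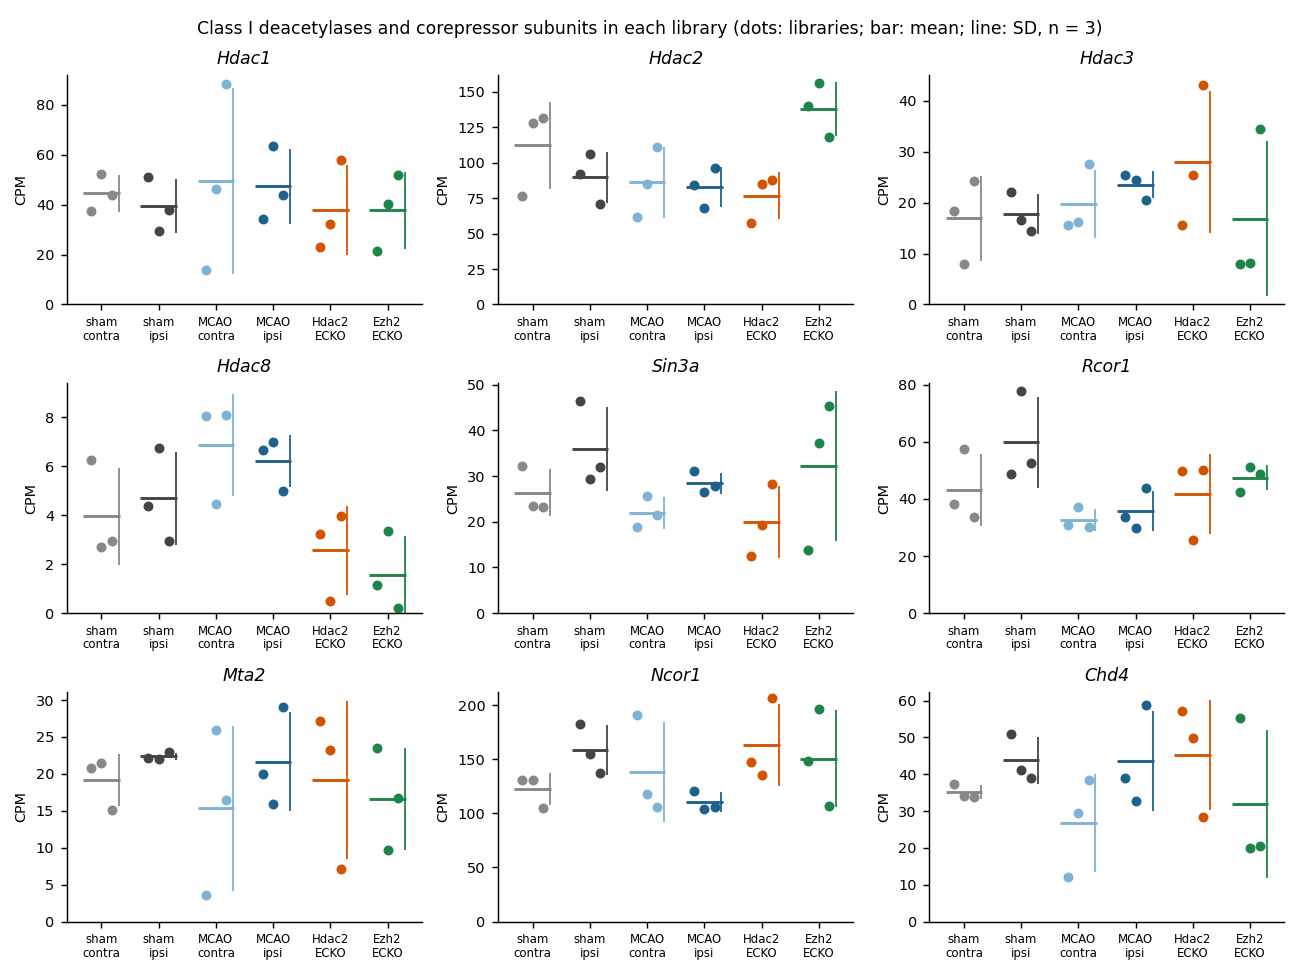
CPM of each of the 9 members in each library (dots), by group, with the group mean (bar) and SD (line, n = 3). The Hdac2 panel shows the 3 Ezh2 ECKO libraries at 118 to 156 CPM above MCAO ipsilateral, and most other panels show overlapping groups.

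Mta2, a scaffold subunit of NuRD that holds the deacetylase, lies on chromosome 19 (8941875 to 8952303, plus strand). Chd4, the ATP-driven nucleosome remodeller of NuRD, lies on chromosome 6 (125095981 to 125130591, plus strand). The pair moved together more closely than any other pair of members. Mta2 was lowest in MCAO contralateral replicate 1 (3.61 CPM) and Hdac2 ECKO replicate 3 (7.06 CPM), and highest in MCAO ipsilateral replicate 3 (29.0 CPM). Chd4 was lowest in MCAO contralateral replicate 1 (12.1 CPM) and highest in MCAO ipsilateral replicate 3 (58.9 CPM). The lowest and the highest library were thus the same for both genes.

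Across the 18 libraries the log2 levels of Mta2 and Chd4 had a Pearson r of 0.829 and a Spearman rho of 0.798, with permutation p of 1.2e-04 and 1.9e-04. Among the 36 pairs of members computed, these were 0.00432 and 0.00684 after adjustment, and no other pair had an adjusted p under 0.05 for r. The median r of the 36 pairs was −0.02, with 17 above 0. Leaving out MCAO contralateral replicate 1 and Hdac2 ECKO replicate 3, the 2 libraries farthest from the Mta2 median, gave an r of 0.751. It was 0.681 without MCAO contralateral replicate 1 alone and 0.838 with group means removed. No batch is named in the labels, so it was not repeated within batches. Chd4 ranked 39 of 7813 genes by r with Mta2, and Mta2 ranked 12 of 7813 by r with Chd4.

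**Figure D4:**
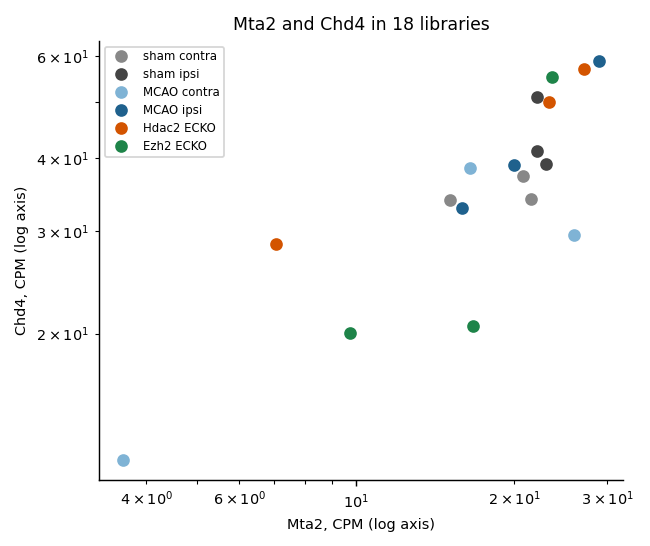
CPM of Chd4 against Mta2 in the 18 libraries (both axes log), coloured by group. Points rise together from MCAO contralateral replicate 1 at 3.61 and 12.1 CPM to MCAO ipsilateral replicate 3 at 29.0 and 58.9 CPM.

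Background and base composition moved with this pair. Both genes were lower where background was higher (r −0.68 for Mta2 and −0.67 for Chd4, rho −0.29 and −0.31, descriptions over 18 libraries), and they had the highest GC content of the 9 members, 53.4% and 52.9%, against a median of 48.9% of tested genes. With background regressed out of both, r was 0.69, and it was 0.68 when the trend of levels with GC content in a library was regressed out too. Among the other 11 NuRD genes measured, r with Mta2 ran from −0.40 for Chd5 to 0.57 for Mta3, and r with Chd4 from −0.46 for Chd5 to 0.63 for Mta3. Chd5 had a median of only 0.155 CPM.

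Because these 2 genes varied together, their promoters are shown, from RefSeq on build GRCm38.p6 (250 bases before the start and 50 after, 5′ to 3′ on the plus strand). Capitals mark matches on either strand to the GC box with letters GGGCGG, the CCAAT box with letters CCAAT, the ETS core with letters CCGGAAG, the E-box with letters CACGTG and the CRE with letters TGACGTCA. The 2 windows are chr19:8941670-8941969 and chr6:125095731-125096030.
Mta2: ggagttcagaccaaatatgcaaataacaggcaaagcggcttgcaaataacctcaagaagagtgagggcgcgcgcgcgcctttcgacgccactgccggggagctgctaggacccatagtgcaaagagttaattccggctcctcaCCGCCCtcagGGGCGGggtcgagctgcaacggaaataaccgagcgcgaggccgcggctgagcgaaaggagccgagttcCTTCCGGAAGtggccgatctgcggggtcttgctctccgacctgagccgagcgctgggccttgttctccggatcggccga
Chd4: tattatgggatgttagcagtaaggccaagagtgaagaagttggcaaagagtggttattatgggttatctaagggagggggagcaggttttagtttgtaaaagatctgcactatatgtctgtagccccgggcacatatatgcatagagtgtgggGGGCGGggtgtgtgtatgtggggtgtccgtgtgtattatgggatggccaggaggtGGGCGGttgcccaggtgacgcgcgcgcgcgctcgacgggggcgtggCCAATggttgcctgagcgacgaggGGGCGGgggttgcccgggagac
The Mta2 window held 2 GC boxes and 2 ETS cores, which overlap each other on opposite strands. The Chd4 window held 3 GC boxes and 1 CCAAT and no ETS core, and a second listed Chd4 start gave the same kinds of match. Of 32851 RefSeq promoters of this length, 35.7% held a GC box, 37.4% a CCAAT and 8.86% an ETS core. The GC box was thus the only motif in both windows. It was not particular to this pair. At least 1 listed window of Hdac2, Sin3a, Rcor1 and Ncor1 also held it, and that of Hdac8 did not. The windows contained 30 and 17 CG dinucleotides, against a median of 7 per promoter.

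No member was called in any of the 7 comparisons by edgeR, at an adjusted p under 0.05. For MCAO against sham on the ipsilateral side, 0% of the 17094 tested genes were called, and 7.08% had an unadjusted p under 0.05. Among the members 0 of 9 were called and 1, Rcor1, had such an unadjusted p. Groups did not overlap for 2 of 9 members, against 27.7% of all genes. DESeq2 called 69 genes there and none of the 9.

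MCAO ipsilateral against MCAO contralateral gave 0% of genes called and 3.08% with an unadjusted p under 0.05, with 0 of 9 members in either set. Groups did not overlap for 1 of 9 members, Sin3a, against 5.37% of all genes. Its 3 MCAO ipsilateral libraries, at 31.0, 26.5 and 27.7 CPM, lay above 18.7, 25.6 and 21.5 CPM in MCAO contralateral, a log2 difference of 0.37 ± 0.43 (adjusted p = 1). On the contralateral side, MCAO against sham gave 0% of genes called and 4.41% by unadjusted p, and again 0 of 9 members. No member's groups failed to overlap, against 9.65% of genes. DESeq2 called 6 and 26 genes in these 2 comparisons and 0 members.

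The 2 sides of sham mice, a comparison without occlusion, gave 0% of genes called and 1.85% by unadjusted p, with 0 of 9 members in either set. Mta2, Ncor1 and Chd4 were higher in all 3 ipsilateral than in all 3 contralateral libraries, 3 of 9 members against 15.4% of genes. Their log2 differences were 0.23 ± 0.58, 0.38 ± 0.31 and 0.32 ± 0.45, each with an adjusted p of 0.9997.

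Hdac2 ECKO against MCAO ipsilateral gave 2 called genes (0.0117%), 9.85% by unadjusted p and 19.9% without overlap. The members had 0, 0 and 2 of 9, the last being Hdac8 and Ncor1. Ezh2 ECKO against MCAO ipsilateral gave 250 called genes (1.46%), 19.2% by unadjusted p and 29% without overlap. The members had 0, 2 and 2 of 9, Hdac2 higher and Hdac8 lower in both counts. The count of 250 fell to 5 without MCAO ipsilateral replicate 1 or 2, to 24 without Ezh2 ECKO replicate 2 and to 8 without Ezh2 ECKO replicate 3.

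The 2 ECKO labels compared directly gave 21 called genes (0.123%), 11.2% by unadjusted p and 12.1% without overlap. The members had 0, 1 and 1 of 9. The member was Hdac2, lower in Hdac2 ECKO than in Ezh2 ECKO by a log2 value of −0.85 ± 0.32 (95% interval −1.52 to −0.18; adjusted p = 0.315). The median member difference was −0.11 for Hdac2 ECKO and −0.32 for Ezh2 ECKO against MCAO ipsilateral, where the median of all genes was 0.11 and 0.17. The 95% intervals of the members were wide. For Mta2 in Hdac2 ECKO against MCAO ipsilateral the interval covered levels from 0.382 to 2.06 times the control. Neither a doubling nor a halving of Mta2 could be excluded there.

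**Figure D5:**
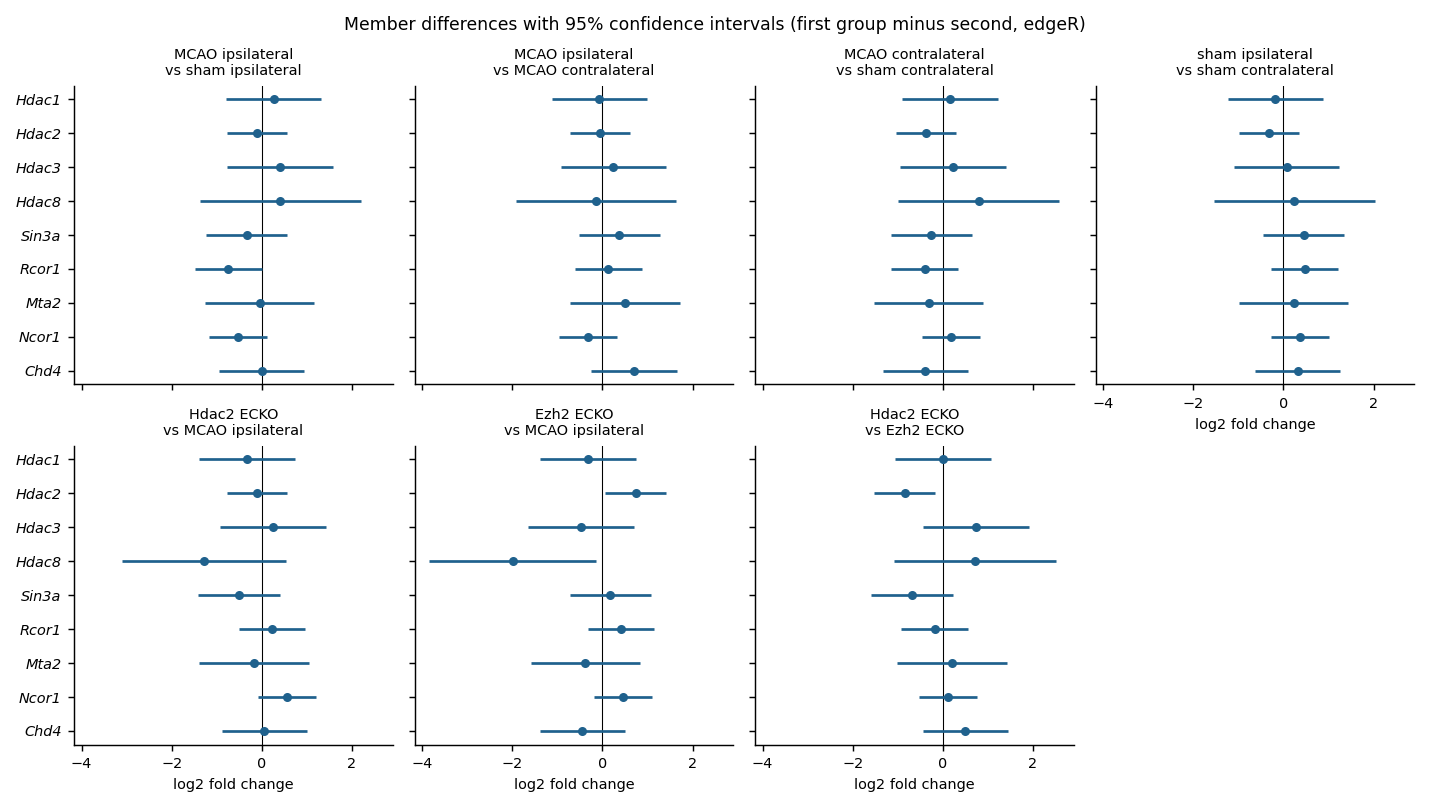
Log2 fold change of each member (dot) with its 95% confidence interval (line) in the 7 comparisons, first group minus second. Of 63 intervals, those of Rcor1 (MCAO against sham ipsilateral), Hdac2 and Hdac8 (Ezh2 ECKO) and Hdac2 (Hdac2 ECKO against Ezh2 ECKO) lie off 0, and none passes after adjustment.

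The wider machinery was examined through 73 genes in 8 lists (SIN3, NuRD, CoREST, NCoR and SMRT, class II and IV deacetylases, sirtuins, acetyltransferases, and repressors that recruit these complexes), all of them tested. By edgeR fitted to all 6 groups, 1 of them was called in the 7 comparisons, Nr1d1 (REV-ERBα), a circadian repressor that recruits NCoR and Hdac3. It averaged 17.1 ± 3.86 CPM in Ezh2 ECKO and 84.1 ± 7.08 CPM in MCAO ipsilateral (SD, n = 3 each), a log2 difference of −2.30 ± 0.41 (adjusted p = 0.0208). All 3 Ezh2 ECKO libraries (12.8 to 20.1 CPM) lay below all 3 MCAO ipsilateral libraries (76.4 to 90.3 CPM). The call was lost without MCAO ipsilateral replicate 1 or 2 or without Ezh2 ECKO replicate 2 or 3 (adjusted p = 0.0632, 0.114, 0.0552 and 0.0828), and with background or the GC trend as a covariate (0.0673 and 0.469). The log2 difference was −2.28, −2.24, −2.15 and −2.39 without those libraries in turn, and −1.92 and −1.52 with the covariates. The call held with RLE size factors, without a filter, with the replicate block, with counts halved, in the 2-group fit and by DESeq2 (adjusted p from 1.5e-05 to 0.0330). Nr1d1 also shares 263 exon bases with Thra on the opposite strand.

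In that comparison 23 of the 73 partner genes had an unadjusted p under 0.05, 13 higher and 10 lower, beside 19.2% of all genes, and the list median was −0.26 against 0.17 for all genes. DESeq2 called 10 of the 73 there, beside 1642 of the 17094 tested genes. Fitted to the 2 groups alone, edgeR called 4 of the 73, beside 485 genes in all. In the SIN3 list 7 of 14 genes had an unadjusted p under 0.05, with 3 higher and 4 lower. The NCoR and SMRT list had 2 of 4 such genes and the CoREST list 2 of 9, each with 1 higher and 1 lower. Arid4a and Arid4b, DNA-binding subunits of the SIN3 complex, averaged 136 and 109 CPM in Ezh2 ECKO against 59.1 and 58.5 CPM (adjusted p = 0.0878 and 0.124). Gps2, a subunit of the NCoR complex, averaged 13.3 CPM against 65.1 CPM (adjusted p = 0.0874), and Hmg20b of the CoREST complex 3.48 against 13.6 CPM (adjusted p = 0.119). None of these 4 was called by edgeR fitted to all 6 groups. DESeq2 called each of them (adjusted p = 0.0259, 0.0286, 0.0246 and 0.0155), and edgeR fitted to only the 2 groups compared called Arid4a and Gps2 (adjusted p = 0.0462 and 0.0288). All 4 log2 differences were smaller with a covariate, and none was then called. Arid4a went from 1.20 to 0.84 with background and 0.59 with the GC trend, and Arid4b from 0.90 to 0.74 and 0.53. Gps2 went from −2.30 to −0.95 and −0.65, and Hmg20b from −1.96 to −1.25 and −0.72.

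Against MCAO ipsilateral, the libraries labelled Hdac2 ECKO had 0 of 73 partner genes called by edgeR, beside 2 of the 17094 tested genes. DESeq2 called 2 of the 73, beside 244 genes in all. By unadjusted p under 0.05 in edgeR there were 8 of 73, 4 higher and 4 lower, near the 9.85% of all genes. Of these, the repressor list held 3 higher and 2 lower, and the sirtuin list 1 higher and 1 lower. Hes1, a Notch-dependent repressor, averaged 2374 CPM in Hdac2 ECKO and 1018 CPM in MCAO ipsilateral (log2 difference 1.22 ± 0.33, adjusted p = 0.301 in edgeR and 0.0267 in DESeq2). Sirt1, an NAD-dependent deacetylase, averaged 62.8 and 30.0 CPM (adjusted p = 0.426). Between MCAO and sham ipsilateral libraries 0 of 73 were called by edgeR or DESeq2 and 1 had an unadjusted p under 0.05 in edgeR, beside 7.08% of all genes. That gene was Nr1d1, at 84.1 CPM in MCAO and 40.7 CPM in sham (log2 difference 1.05 ± 0.40, adjusted p = 0.630).

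By Pearson r of log2 CPM over the 18 libraries, among 7813 other genes that averaged 10 CPM or more, those most like Hdac2 were Fam98a (r 0.798), 2610044O15Rik8 (0.770) and Usp37 (0.749). Among members, Hdac1 was the closest to Hdac2 at r 0.287, rank 1312. These are descriptions of libraries that also share depth and composition.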

How the data were processed

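Counts per gene were deposited for 18 libraries. Per the submitters' processing notes, FastQC, cutadapt, STAR, featureCounts and DESeq2 were used with build mm10. Settings and strand mode are not given in the sources used here. The deposited table is named as normalized, but its values are whole numbers with unequal totals, and 77.3% to 89.4% of counts from 1 to 20 were even, so they were treated as unscaled counts in which both mates of a pair may be counted. Of 21638 genes, 21442 matched GENCODE M21 (GRCm38) by symbol and place.

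Genes with at least 10 counts in at least 3 libraries were fitted with edgeR 4.0.16 (quasi-likelihood, TMM, 1 mean per group, all 18 libraries; R 4.3.3). Benjamini-Hochberg adjustment ran over 17094 genes, and calls needed an adjusted p under 0.05. CPM uses TMM-scaled totals, and correlations use log2 CPM with a prior count of 2. DESeq2 1.42.0 was an alternative, as were RLE factors, no filter, a replicate block, a background covariate, halved counts, fits to 2 groups and left-out libraries. A GC trend covariate and the alternatives for the correlation of Mta2 and Chd4 were chosen after seeing the data. The test was tried on simulated data that held no differences in background or GC trend between libraries. That trial does not bear on either. Permutation tests of correlations used 100000 resamples.

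The members and gene lists were chosen with earlier results of these data known. The named genes were the members, Ezh2, up to 4 called genes per partner list and direction (2 of smallest unadjusted p where none was called, values only), and the 3 genes most like Hdac2.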

Additional observations from a re-analysis of the deposited data

How the results depend on the processing

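No member passed the threshold in edgeR under any setting run. DESeq2 called 1 member, Hdac2 in Ezh2 ECKO against MCAO ipsilateral, among 1642 of the 17094 tested genes. Of 63 member differences, the 21 at least as large as their SE kept their sign under every alternative run. Of the other 42, 27 changed sign under at least 1 of them, in 67 of 882 values over all members. None of these sign changes passed the threshold, and no direction is read from those differences. Deviations from group means over 7814 genes were correlated between samples with the same number. The values were 0.365, 0.346 and −0.124 across the sides of sham mice and 0.277, 0.361 and 0.036 across those of MCAO mice. In both, the same number was the best match for replicates 1 and 2 but not for replicate 3. Replicate 3 reached 0.392 between MCAO and sham contralateral, which came from different mice. Pairing was thus not settled, and the numbers were not taken as pairs. The replicate block changed no call of a member. What moved the other values was not tested. Depth limits Hdac8 most, with as few as 8 counts in a library.

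The counts of calls moved as follows. For MCAO against sham ipsilateral, 0 genes were called, against 69 with DESeq2, 2 with no filter on low counts, 1 with the background covariate and 74 with a fit to the 2 groups alone. For MCAO ipsilateral against contralateral, 0 genes were called, against 6 with DESeq2. For MCAO against sham contralateral, 0 genes were called, against 26 with DESeq2, and 0 to 1 with 1 library left out. For sham ipsilateral against contralateral, 0 genes were called, against 6 with DESeq2. For Hdac2 ECKO against MCAO ipsilateral, 2 genes were called, against 4 with RLE factors, 244 with DESeq2, 10 with the background covariate, 5 with halved counts and 0 with a fit to the 2 groups alone, and 0 to 18 with 1 library left out. For Ezh2 ECKO against MCAO ipsilateral, 250 genes were called, against 1642 with DESeq2, 12 with the replicate block, 13 with the background covariate, 435 with halved counts, 5 with the GC trend covariate and 485 with a fit to the 2 groups alone, and 5 to 298 with 1 library left out. For Hdac2 ECKO against Ezh2 ECKO, 21 genes were called, against 659 with DESeq2, 38 with no filter on low counts, 9 with the replicate block, 54 with the background covariate, 32 with halved counts and 41 with the GC trend covariate, and 9 to 73 with 1 library left out. For Hdac2 ECKO against MCAO ipsilateral, 0 partner genes were called, against 2 with DESeq2. For Ezh2 ECKO against MCAO ipsilateral, 1 partner gene was called, against 10 with DESeq2, 0 with the background covariate, 0 with the GC trend covariate and 4 with a fit to the 2 groups alone, and 0 to 1 with 1 library left out. For Hdac2 ECKO against Ezh2 ECKO, 0 partner genes were called, against 5 with DESeq2. For Ezh2 ECKO against MCAO ipsilateral, 0 members were called, against 1 with DESeq2.

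Member differences that changed sign are given as log2 values. With no filter on low counts these were 0.022 for Hdac1 and 0.045 for Hdac2 in MCAO ipsilateral against contralateral, −0.0047 for Hdac1 in MCAO against sham contralateral, 0.029 for Hdac2 in Hdac2 ECKO against MCAO ipsilateral, 0.030 for Hdac1 in Hdac2 ECKO against Ezh2 ECKO. With the replicate block these were 0.12 for Hdac1 in MCAO ipsilateral against contralateral, −0.052 for Hdac1 in MCAO against sham contralateral. With the background covariate these were 0.056 for Hdac8 in MCAO ipsilateral against contralateral, −0.0048 for Hdac8 in sham ipsilateral against contralateral, 0.15 for Hdac1, 0.39 for Mta2 and 0.048 for Chd4 in Ezh2 ECKO against MCAO ipsilateral, −0.41 for Mta2 in Hdac2 ECKO against Ezh2 ECKO. With the GC trend covariate these were 0.048 for Hdac8 in MCAO ipsilateral against contralateral, −0.0022 for Hdac1 in MCAO against sham contralateral, 0.057 for Hdac1 and 0.47 for Mta2 in Hdac2 ECKO against MCAO ipsilateral, 0.20 for Hdac1, 0.77 for Mta2 and 0.41 for Chd4 in Ezh2 ECKO against MCAO ipsilateral, −0.30 for Mta2 in Hdac2 ECKO against Ezh2 ECKO. With RLE factors these were −0.034 for Rcor1 in MCAO ipsilateral against contralateral, −0.0043 for Ncor1 in Hdac2 ECKO against Ezh2 ECKO. With DESeq2 these were −0.034 for Rcor1 in MCAO ipsilateral against contralateral, −0.0043 for Ncor1 in Hdac2 ECKO against Ezh2 ECKO. With a fit to the 2 groups alone these were −0.0040 for Rcor1 in MCAO ipsilateral against contralateral. With 1 library left out, ranges that crossed 0 were as follows. In MCAO against sham ipsilateral the range was from −0.012 to 0.51 for Hdac1, from −0.26 to 0.025 for Hdac2, from −0.28 to 0.13 for Mta2 and from −0.25 to 0.16 for Chd4. In MCAO ipsilateral against contralateral the range was from −0.53 to 0.65 for Hdac1, from −0.27 to 0.17 for Hdac2, from −0.38 to 0.020 for Hdac8 and from −0.017 to 0.25 for Rcor1. In MCAO against sham contralateral the range was from −0.57 to 0.61 for Hdac1, from −0.11 to 0.60 for Hdac3, from −0.92 to 0.18 for Mta2 and from −0.10 to 0.34 for Ncor1. In sham ipsilateral against contralateral the range was from −0.27 to 0.40 for Hdac3 and from −0.11 to 0.72 for Hdac8. In Hdac2 ECKO against MCAO ipsilateral the range was from −0.25 to 0.021 for Hdac2, from −0.24 to 0.49 for Hdac3, from −0.53 to 0.18 for Mta2 and from −0.18 to 0.27 for Chd4. In Ezh2 ECKO against MCAO ipsilateral the range was from −0.17 to 0.54 for Sin3a. In Hdac2 ECKO against Ezh2 ECKO the range was from −0.46 to 0.27 for Hdac1, from −0.39 to 0.0047 for Rcor1, from −0.17 to 0.58 for Mta2 and from −0.11 to 0.34 for Ncor1.

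The differences in the log2 ratio of Hdac2 to Hdac1 that changed sign with 1 library left out ran from −0.59 to 0.012 for MCAO against sham ipsilateral, from −0.68 to 0.24 for MCAO ipsilateral against contralateral, from −0.70 to 0.22 for MCAO against sham contralateral, from −0.43 to 0.074 for sham ipsilateral against contralateral and from −0.11 to 0.51 for Hdac2 ECKO against MCAO ipsilateral. Differences taken within replicate numbers have the same mean as the main difference, so the replicate block could not change their sign. The r of Mta2 and Chd4 was 0.69 with background regressed out, 0.68 with the GC trend too, and 0.68 to 0.87 with 1 library left out.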
